A study of Homo sapiens with 6 samples.

Results

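The proteasome genes were described in MDA-MB-231, a long-established line of human triple negative breast cancer cells, without and with EC-70124, a multi-kinase inhibitor of the indolocarbazole type. They were chosen by symbol alone: every gene of the probe annotation named PSMA to PSMG with a number, and POMP. This gave 46 genes of the 18417 analysed, and no measured value was used in the choice. The known subunits PSMC5, PSMD7 and PSMD13 are not analysed here. The study had 3 independent control samples of untreated cells and 3 independent samples of the same line kept in EC-70124 at 500 nM during 24 h, each measured on 1 Human Gene ST array (Affymetrix). All groups thus come from 1 cultured line, and the source labels name no vehicle for the controls. In total RNA of a whole culture, less RNA per cell and fewer cells that express a gene cannot be told apart.

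Values are intensities on a linear scale, the model-based expression index (MBEI) that the authors deposited after normalizing all arrays together. Each gene was represented by the probe set with the highest mean, and treated and control arrays were compared on the log2 scale with limma across all genes, with Benjamini-Hochberg adjustment over all genes and a threshold of 0.05. A log2 fold change is always treated minus control. Intensities of different genes come from different probes, so where genes are ranked by intensity this ranks their signals on the array and not their transcript levels. Array medians over all probe sets ran from 437.2 to 460.1, and log2 values correlated at 0.990 to 0.993 within a group and 0.979 to 0.984 between groups. Of the genes that mark the line, CD44 had a mean intensity of 10098 in control cells and vimentin (VIM) of 13827. The estrogen and progesterone receptors (ESR1, PGR) and E-cadherin (CDH1) were between 155.8 and 225, and the receptor ERBB2 (HER2), also named in the definition of triple negative cancer, was at 1486. In treated cells CD44 fell (log2 fold change -0.29, adjusted p = 0.0049 from limma) and CDH1 rose (0.19, adjusted p = 0.049 from limma). VIM, ESR1, PGR and ERBB2 did not pass the test. Of 9 measured leukocyte and endothelial markers, none passed the test, with control means between 95.1 and 563.

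The proteasome degrades proteins that carry ubiquitin chains. Its 20S core is a barrel of outer alpha rings and inner beta rings, and the beta subunits PSMB5, PSMB6 and PSMB7 cut the substrate. The 19S regulatory particle binds the barrel's ends, recognizes ubiquitin, removes it and threads the substrate inward with a ring of ATPases. Interferon replaces the cutting subunits by PSMB8, PSMB9 and PSMB10 to form the immunoproteasome, which supplies peptides for MHC class I, and dedicated chaperones assemble both particles. The transcription factors NRF1 (NFE2L1) and NRF2 (NFE2L2) are known to raise proteasome gene transcription, the former when proteasome activity is short.

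Most proteasome genes did not pass the test for a difference, and those that did changed by little. Of the 46 genes, 8 rose and 5 fell in treated cells at an adjusted p under 0.05 from limma, and 33 did not pass. Over all 18417 genes, the rises made up 19.7% and the falls 14.8%, 34.5% together, against 17.4%, 10.9% and 28.3% of the proteasome genes. Treated and control intensities did not overlap for 21 of the 46 genes, or 45.7%, close to the 47.6% of all genes. The changes were small. The largest fall was a log2 fold change of -0.50 (PSMB9) and the largest rise one of 0.43 (PSMD4), and none of the 46 reached a fold of 1.5, which 9.72% of all genes exceeded. The median log2 fold change was 0.05 for the proteasome genes and -0.0045 for all genes, and the median size, regardless of direction, was 0.12 and 0.14.

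**Figure D1:**
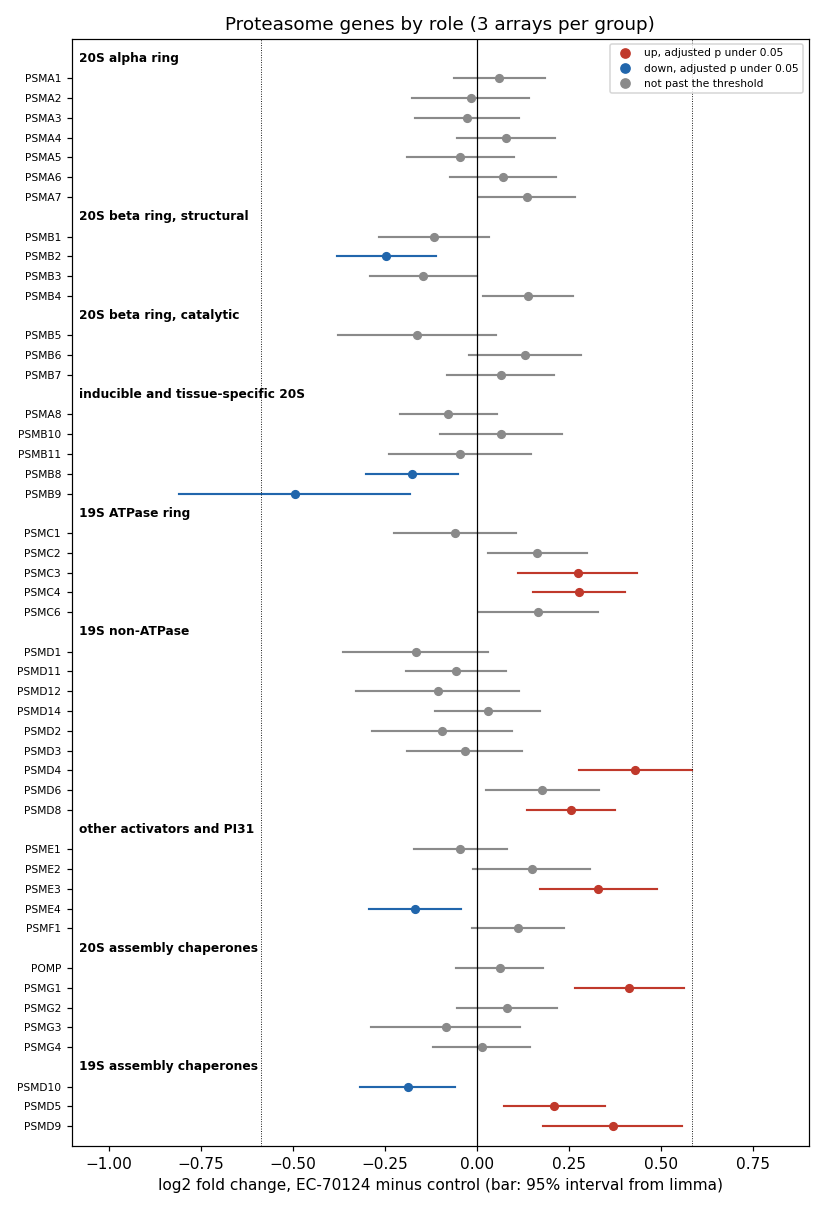
Log2 fold change (x axis, EC-70124 minus control, 3 arrays per group) of each of the 46 proteasome genes (y axis, grouped by role), with bars for the 95% interval from limma and dotted lines at a fold of 1.5. Red and blue points passed the test as rises (8) and falls (5), and all points lie between -0.50 and 0.43, inside the dotted lines.

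The proteasome genes mostly gave bright signals on these arrays. By mean log2 intensity 43 of the 46 lay in the upper 50% of all genes and 38 in the upper 25%. When the 30% dimmest genes were left out, 47.7% of the 12892 remaining genes passed the test, and 16 of the 44 remaining proteasome genes, or 36.4%, did so. These 16 were 11 rises and 5 falls, against 26.7% rises and 21% falls among all genes left. The deposited values hold no measure of background. The 2 dimmest genes are the tissue-specific ones, PSMA8 (control intensities of 119, 120.2 and 117) and PSMB11 (343, 344 and 288), and for these dim signals the arrays do not show whether a transcript was present.

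**Figure D2:**
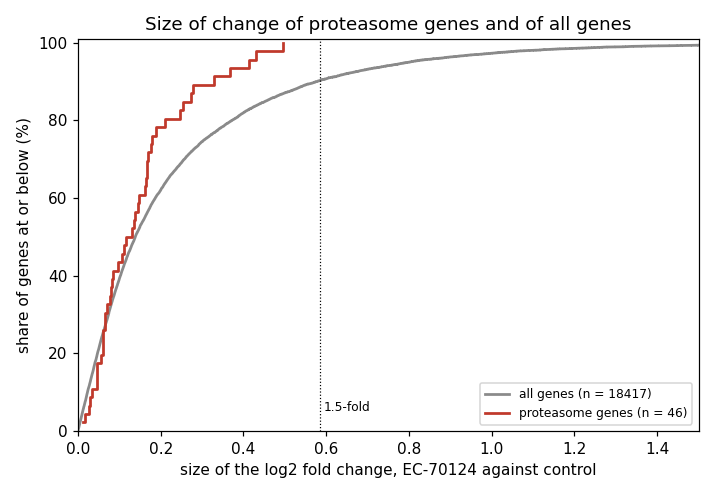
Share of genes (y axis, %) whose change between EC-70124 and control is at or below a given size (x axis, log2 fold change regardless of direction), for the 46 proteasome genes (red) and all 18417 genes (gray). The red line reaches 100% at 0.50, left of the dotted line at a fold of 1.5, while 9.72% of all genes lie to the right of that line.

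In the 20S core none of the 7 genes of the alpha ring, which gates the barrel, passed the test (PSMA1 to PSMA7), with log2 fold changes from -0.05 (PSMA5) to 0.14 (PSMA7). The 95% intervals of PSMA1 to PSMA6 each held 0, for example -0.19 to 0.10 for PSMA5. That of PSMA7, not adjusted over genes, ran from 0.0047 to 0.27. PSMA7 alone among the 7 had no overlap between groups, with 5599, 5621 and 5786 in control and 6167, 5988 and 6535 in treated arrays (adjusted p = 0.106 from limma). Of the structural beta subunits, PSMB2 fell from 6341, 6196 and 6364 in the controls to 5099.8, 5221 and 5632 in treated arrays (the log2 fold change was -0.25 ± 0.06 (SE), limma's adjusted p = 0.0119). All treated values of PSMB2 were below all control values. PSMB1, PSMB3 and PSMB4 did not pass, with log2 fold changes of -0.12, -0.15 and 0.14. PSMB2 was the only one of the 14 constitutive 20S genes to pass the test.

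None of the constitutive cutting subunits passed the test. PSMB5, which cuts after hydrophobic residues, had intensities of 4816, 5096 and 5759 in control arrays and of 4389, 4399.7 and 5216 in treated arrays. Its groups overlapped, and the log2 fold change was -0.16 with a 95% interval of -0.38 to 0.05 (adjusted p = 0.231 from limma). PSMB6, which cuts after acidic residues, had 9513, 10056 and 9223 in control and 10298, 9989 and 11232 in treated arrays. The treated array of replicate 2 lay within the control range, and the log2 fold change was 0.13 with an interval of -0.02 to 0.28. PSMB7, which cuts after basic residues, had 5487, 5719.9 and 5829 in control and 5689, 5786 and 6351 in treated arrays. Only the third treated array stood above the controls, and the log2 fold change was 0.06 with an interval of -0.08 to 0.21. POMP, the chaperone that completes the barrel, had 8984, 9228 and 9146 in control and 9540.2, 9297 and 9715 in treated arrays. Its groups did not overlap, but the log2 fold change was 0.06 (adjusted p = 0.414 from limma).

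In the 19S particle 4 of the 14 subunit genes chosen by symbol rose and none fell, where 19.7% of all genes rose and 14.8% fell. Regardless of the test, 8 of the 14 log2 fold changes were positive and 6 negative. In the ATPase ring, PSMC4 went from 5790.0, 5914 and 5840.4 in control to 6870.2, 7033 and 7369.6 in treated arrays. The groups were well apart, with a log2 fold change of 0.28 ± 0.05 (SE, limma's adjusted p = 0.00449). PSMC3 went from 3409, 3393 and 3395 to 4006, 3834 and 4511. All treated arrays were above the controls and the third was the highest, with a log2 fold change of 0.27 ± 0.07 (SE, limma's adjusted p = 0.0165). That call was lost without control replicate 1 or 2 (adjusted p = 0.0538 and 0.0528 from limma). PSMC2 and PSMC6 had log2 fold changes of 0.16 and 0.17 without overlap between groups and did not pass (adjusted p = 0.0641 and 0.109 from limma). A second PSMC6 probe set gave 0.26, and with the median of both PSMC6 passed (adjusted p = 0.0451 from limma). PSMC1 had -0.06 on each of its 2 probe sets.

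Among the non-ATPase subunits, PSMD4, the ubiquitin receptor also called Rpn10, had the largest rise of all 46 genes. Its intensity was 2712, 2430.1 and 2409 in the control arrays and 3341, 3285 and 3535 in the treated arrays, with no overlap. The log2 fold change was 0.43 ± 0.07 (SE, limma's adjusted p = 0.00142), a rise of 34.7%. PSMD8, a lid subunit needed to join the lid to the base, had 7935, 7952 and 7836 in control and 9409, 9190.2 and 9699.5 in treated arrays. The control values were close together and all treated values lay above them, with a log2 fold change of 0.25 ± 0.05 (SE, limma's adjusted p = 0.00575). The other non-ATPase subunits chosen by symbol did not pass. PSMD6 had a log2 fold change of 0.18 without overlap (adjusted p = 0.0741 from limma). PSMD14, the deubiquitinase that strips chains from substrates, had 0.03. The scaffolds PSMD1 and PSMD2 had -0.17 and -0.10, and the lid genes PSMD3, PSMD11 and PSMD12 had -0.03, -0.06 and -0.11.

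The EC-70124 array of replicate 3 was the highest of the 3 treated arrays for 35 of the 46 proteasome genes, or 76.1%, against 36.3% of all genes. Its median intensity over the 46 genes was 5449, beside 4856 and 4862 in the other treated arrays and 4983 to 5130.0 in the controls, whereas its median over all probe sets was 450.6. Among the controls, replicate 3 was likewise the highest for 24 of the 46 genes, or 52.2%, against 32.7% of all genes. A fit without EC-70124 replicate 3 gave 8 rises and 8 falls among the proteasome genes, beside 3888 rises and 2947 falls over all 18417 genes. PSMB3, PSMD1, PSMD2 and PSMD12 then passed as falls, with log2 fold changes of -0.20, -0.25, -0.18 and -0.22 (adjusted p = 0.0170, 0.0171, 0.0362 and 0.0130 from limma). The part of this array in the small changes was not tested further.

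**Figure D3:**
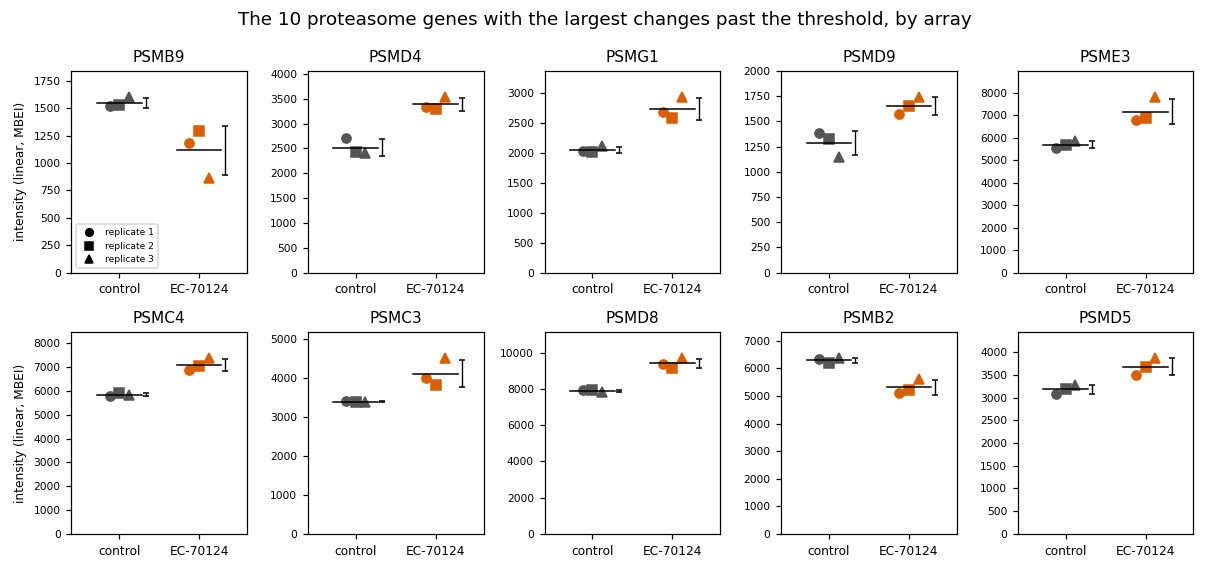
Intensity (y axis, linear MBEI, starting at 0) of the 10 proteasome genes with the largest changes among those past the threshold, in control and EC-70124 arrays (x axis), 1 point per array with its replicate number as shape. Horizontal lines are group means and side bars 1 SD (n = 3). In none of the 10 do the groups overlap, and PSMB9 has its lowest value, 863, in treated replicate 3.

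Of the immunoproteasome subunits, PSMB9 and PSMB8 fell and PSMB10 did not pass. PSMB9 had control intensities of 1516, 1529 and 1601 and treated intensities of 1186, 1294 and 863. All treated arrays were below the controls and the third was far lower than the others. The log2 fold change was -0.50 ± 0.14 (SE, limma's adjusted p = 0.0226), or -0.32 without EC-70124 replicate 3 (adjusted p = 0.00610 from limma). PSMB8 had 969, 953 and 977 in control and 827, 850.2 and 887 in treated arrays, again without overlap. Its log2 fold change was -0.18 ± 0.05 (SE, limma's adjusted p = 0.0349). PSMB10 had 678, 741 and 648 in control and 759.5, 678 and 724 in treated arrays, which overlapped (log2 fold change 0.07, 95% interval -0.10 to 0.23). The PSMB9 call was lost without any 1 of the control arrays (adjusted p = 0.0591 to 0.0707 from limma), and the PSMB8 call without any array other than EC-70124 replicate 3 (0.0748 to 0.112). PSMB8 and PSMB9 each have 3 probe sets whose values were identical in all arrays, and they were counted once. In a limma fit of all probe sets instead of 1 per gene, neither passed (adjusted p = 0.0603 for PSMB8 and 0.0623 for PSMB9). PSMB8 also did not pass with the trend and robust settings of limma's eBayes (adjusted p = 0.0518).

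Each immunoproteasome subunit takes the place of 1 constitutive subunit, so the difference of their log2 values within an array was compared between groups. For PSMB9 minus PSMB6 the difference was -2.65, -2.72 and -2.53 in control and -3.12, -2.95 and -3.70 in treated arrays. It was lower in 3 of 3 treated arrays (mean change -0.62, exact 2-sided permutation p = 0.1, the smallest that 3 against 3 arrays can give, and 0.3 adjusted over 3 pairs). For PSMB8 minus PSMB5 the change was -0.01 and for PSMB10 minus PSMB7 it was 0.0013 (exact permutation p = 1 for both). Both changes are small beside the SD of the difference between control arrays, 0.12 and 0.11. PSMB8 and PSMB5 thus had similar log2 fold changes, -0.18 and -0.16.

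PSMB9 lies head to head with TAP1, the peptide transporter gene of the MHC region, and in the RefSeq annotation (GRCh38.p14) their starts are 488 bases apart on opposite strands. The windows below run from 250 bases before to 50 bases after each start and are shown because PSMB9 had the largest fall and TAP1 and PSMB10 did not pass. They lie at chr6:32853942-32854241, plus strand (PSMB9), chr6:32853655-32853954, minus strand (TAP1) and chr16:67936801-67937100, minus strand (PSMB10). Capitals mark the CCAAT box (CCAAT), the antioxidant response element bound by NRF1 and NRF2 (TGACNNNGC) and the interferon-stimulated response element (GAAA, any 2 bases, GAAA), on either strand.
PSMB9: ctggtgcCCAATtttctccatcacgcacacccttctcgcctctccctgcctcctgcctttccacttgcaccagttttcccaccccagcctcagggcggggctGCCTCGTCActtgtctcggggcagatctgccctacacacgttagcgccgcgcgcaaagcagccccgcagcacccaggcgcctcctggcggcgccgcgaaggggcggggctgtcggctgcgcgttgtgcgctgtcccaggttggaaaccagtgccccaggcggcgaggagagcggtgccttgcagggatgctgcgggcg
TAP1: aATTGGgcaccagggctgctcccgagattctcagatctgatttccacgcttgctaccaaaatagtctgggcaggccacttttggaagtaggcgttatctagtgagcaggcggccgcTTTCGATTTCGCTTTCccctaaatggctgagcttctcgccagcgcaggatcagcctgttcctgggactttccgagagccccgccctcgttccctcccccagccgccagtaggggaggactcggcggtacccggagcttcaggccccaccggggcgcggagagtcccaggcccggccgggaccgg
PSMB10: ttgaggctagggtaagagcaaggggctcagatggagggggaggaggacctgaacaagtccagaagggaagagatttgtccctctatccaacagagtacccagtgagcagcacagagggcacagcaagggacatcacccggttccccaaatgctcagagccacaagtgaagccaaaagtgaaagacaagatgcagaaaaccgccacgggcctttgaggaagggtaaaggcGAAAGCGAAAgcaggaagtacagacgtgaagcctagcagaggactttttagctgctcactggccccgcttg
The PSMB9 window holds an antioxidant response element and a CCAAT box and no interferon-stimulated element. Its first 13 bases are shared with the TAP1 window, so that the CCAAT box marked in both is the same one. The TAP1 window holds overlapping matches of the interferon-stimulated element. These lie between the TAP1 and PSMB9 starts, upstream of both, but farther from PSMB9 than the 250 bases in its window. The PSMB10 window holds 1 such match, 21 bases before the start.

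TAP1 itself had control intensities of 2657, 2730.4 and 2833 and treated intensities of 3177, 2981 and 2225. Treated replicates 1 and 2 were above all controls and replicate 3 was below them, with a log2 fold change of 0.01 (standard error 0.12). The array with the lowest PSMB9 value thus also had the lowest TAP1 value. Of the 11 measured genes of MHC class I processing, 3 rose and 4 fell, where 19.7% of all genes rose and 14.8% fell. TAPBPL, a peptide editor, rose from 448 ± 48.3 to 1152 ± 93.4 (SD, n = 3, log2 fold change 1.36), and the interferon regulatory factor gene IRF1 from 676 ± 74.5 to 1579.6 ± 219 (SD, n = 3, log2 fold change 1.22). ERAP2 rose as well (0.79), while ERAP1, the other aminopeptidase that trims peptides, fell (-0.41). TAP2, TAPBP and NLRC5, the transactivator of class I genes, fell too (-0.29, -0.28 and -0.31). The adjusted p values of these 7 ran from 2.8e-05 to 0.0153 in limma. B2M, CALR and CANX did not pass. The classical HLA genes are not analysed here.

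**Figure D4:**
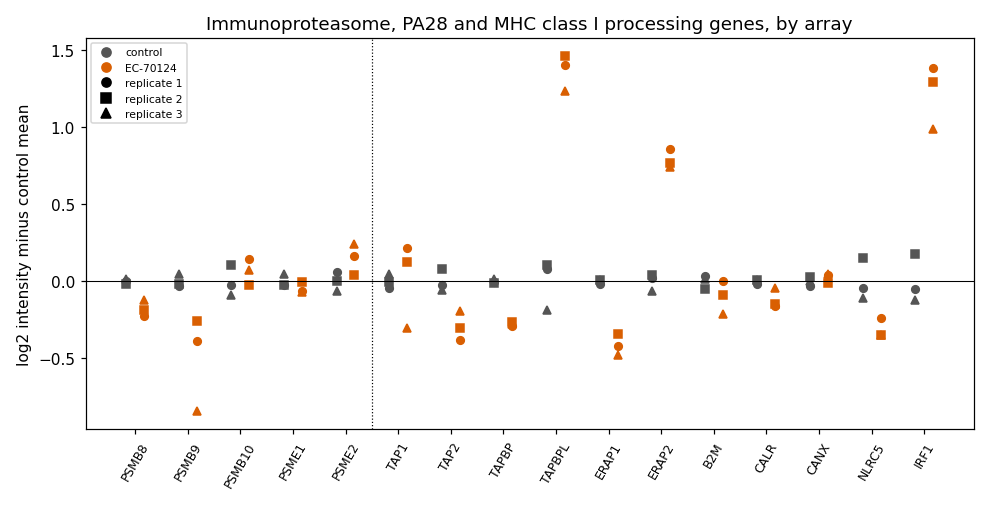
Log2 intensity minus the mean of the 3 control arrays (y axis) for immunoproteasome and PA28 genes (left of the dotted line) and genes of MHC class I processing (x axis), 1 point per array with its replicate number as shape. PSMB8 and PSMB9 lie below 0 in all treated arrays, TAP1 lies on both sides, and TAPBPL, ERAP2 and IRF1 lie far above.

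The alternative caps of the core differed among themselves. PSME3, the nuclear activator PA28 gamma, rose from 5534, 5682 and 5842 in control to 6772, 6890.4 and 7805 in treated arrays. The groups did not overlap and the log2 fold change was 0.33 ± 0.07 (SE, limma's adjusted p = 0.00654). PSME4, the activator PA200, fell slightly. Its intensities were 5021, 5111 and 5059 in control and 4698, 4406 and 4416 in treated arrays, without overlap, a log2 fold change of -0.17 ± 0.05 (SE, limma's adjusted p = 0.0421). This call was lost in 5 of the 6 fits that leave out 1 array, the exception being EC-70124 replicate 1. PSME1 and PSME2, the interferon-inducible PA28 alpha and beta chains, had log2 fold changes of -0.04 and 0.15 with overlapping groups. PSMF1, the inhibitor PI31, had 0.11 without overlap (adjusted p = 0.156 from limma).

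Among the assembly chaperones, PSMG1, which with PSMG2 builds the alpha ring, rose from 2028, 2020.4 and 2119 to 2689, 2594 and 2939. The groups were far apart, with a log2 fold change of 0.41 ± 0.06 (SE, limma's adjusted p = 0.00142). Its partner PSMG2 had 0.08 with overlapping groups, and PSMG3 and PSMG4, the second pair of chaperones, had -0.08 and 0.01. The array-wise values of PSMG4 in treated cells differed by little (1060.1, 1058.5 and 1056.8). Of the chaperones of the 19S base, the 3 with PSMD symbols passed the test, in different directions, and PAAF1 (Rpn14), not chosen by symbol, did not (log2 fold change -0.10, adjusted p = 0.234 from limma). PSMD9 (p27) rose from 1385, 1324 and 1149 to 1569.5, 1655 and 1742, without overlap (log2 fold change 0.37 ± 0.08 (SE), limma's adjusted p = 0.00860). PSMD5 (S5b) rose from 3085, 3190.5 and 3277 to 3509.6, 3682 and 3866, also without overlap (0.21, adjusted p = 0.0257 from limma). PSMD10 (gankyrin) fell from 6628, 7132 and 7095 to 6092, 6214 and 5991 (-0.19, adjusted p = 0.0313 from limma). The PSMD5 call was lost after quantile normalization and cyclic loess (adjusted p = 0.0655 and 0.0562 from limma) and without control replicate 1 or 2 or EC-70124 replicate 2. The PSMD10 call was lost without control replicate 2 or 3 or EC-70124 replicate 1 or 2.

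A promoter window of the same kind was found in RefSeq for 40 of the 46 genes (not for PSMA7, PSMB1, PSMB6, PSMB7, PSMD4 and PSMG3). The first listed window of each gene was searched on both strands. The antioxidant response element TGACNNNGC was present in 13 of the 40, or 32.5%, and in 13.6% of all 27305 windows. The ETS site CCGGAAG was present in 12 (30% against 10.7%), the CCAAT box in 17 (42.5% against 35.7%) and the interferon-stimulated element (GAAA, any 2 bases, GAAA) in 6 (15.0% against 3.6%). A second PSMB8 window also holds the last motif. Median GC content was 62.0% over all listed windows of these genes and 58.3% over all 27305. The shares were not adjusted for this. Of the 13 genes with an antioxidant response element, 4 rose and 2 fell, with a median log2 fold change of -0.03, and of the 27 without, 3 rose and 3 fell, with a median of 0.03. None of the 6 genes with an interferon-stimulated element in the window searched passed the test. The windows of PSMG1 (chr21:39183402-39183701, minus strand) and PSMD9 (chr12:121888540-121888839, plus strand), the assembly chaperones with the largest rises, both hold the antioxidant response element. The same element is in the windows of PSMC4 and PSMD5, which rose, and of PSMB9 and PSME4, which fell. It is also in those of PSMB3, PSMD1, PSMD3, PSMD12, PSME1, PSME2 and PSMG2, which did not pass. A link between the element and the changes was not tested. Capitals mark all 4 motifs, and in PSMD9 an ETS site and an antioxidant response element touch.
PSMG1: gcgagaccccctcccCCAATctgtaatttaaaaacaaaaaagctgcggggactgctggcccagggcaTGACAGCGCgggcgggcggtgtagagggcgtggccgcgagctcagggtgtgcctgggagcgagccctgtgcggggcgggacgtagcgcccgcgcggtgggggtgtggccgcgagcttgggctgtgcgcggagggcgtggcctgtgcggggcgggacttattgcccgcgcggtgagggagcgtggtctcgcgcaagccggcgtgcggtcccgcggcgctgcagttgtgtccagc
PSMD9: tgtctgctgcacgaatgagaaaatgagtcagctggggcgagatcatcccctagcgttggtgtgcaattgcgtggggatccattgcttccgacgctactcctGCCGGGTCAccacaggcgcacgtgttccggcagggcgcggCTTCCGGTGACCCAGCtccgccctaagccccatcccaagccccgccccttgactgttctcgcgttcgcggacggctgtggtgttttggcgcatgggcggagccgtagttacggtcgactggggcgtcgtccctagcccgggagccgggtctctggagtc

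Proteins that work with the proteasome but were not chosen by symbol were read from lists of textbook members. Of 10 proteasome-associated genes 4 rose and none fell, where 19.7% of all genes rose and 14.8% fell. This short list was not tested as a set. TXNL1, a thioredoxin-like protein of the 19S particle, went from 4237 ± 129 to 5815 ± 178 (SD, n = 3, log2 fold change 0.46), and ADRM1, the ubiquitin receptor Rpn13, from 6296 ± 94.5 to 8193 ± 249 (SD, n = 3, log2 fold change 0.38). UCHL5, the deubiquitinase that binds ADRM1, and PITHD1 had 0.18 and 0.17. The adjusted p values of these genes ran from 0.00039 to 0.0499 in limma. USP14, the other deubiquitinase of the 19S particle, SEM1, its smallest subunit, and AKIRIN2 did not pass (-0.02, -0.05 and 0.12). PSMD4 and ADRM1 thus both rose, but ubiquitin receptors were not tested as a class. The 19S scaffold PSMD2 did not pass (-0.10, adjusted p = 0.430 from limma).

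Of 10 measured genes of NRF1 and NRF2 control, 5 rose and none fell, where 19.7% of all genes rose and 14.8% fell. The list is short and was not tested as a set. NFE2L2 went from 4216, 4458 and 4459 in control to 6935, 6987 and 5953 in treated arrays. Its groups did not overlap and the third treated array was the lowest, with a log2 fold change of 0.59 ± 0.07 (SE, limma's adjusted p = 0.00048). NFE2L1 had 5323, 5702 and 5409 in control and 5626, 5591 and 5539 in treated arrays, which overlapped (log2 fold change 0.03, adjusted p = 0.733 from limma). The small MAF partners MAFG and MAFF rose by 0.57 and 0.54 on the log2 scale, UFD1, a cofactor of the VCP unfoldase, by 0.53, and NGLY1, which deglycosylates NRF1, by 0.27. KEAP1, BACH1, VCP and NPLOC4 did not pass. Of 8 measured genes of ubiquitin supply and shuttling, UBQLN2 rose (0.39) and UBQLN4 fell (-0.37), and UBB, UBA1, UBA6, RAD23B, UBQLN1 and DDI1 did not pass.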

How the data were processed

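MDA-MB-231 cells were profiled in 3 control and 3 EC-70124 samples with 1 array each, grouped by their titles. The authors processed the array files in dChip. They normalized all arrays on rank invariant probes, pair by pair, and deposited 1 model-based index per probe set, an intensity on a linear scale. The sources used here do not give the dChip version, the background correction or scan dates. Values were floored at 1 before log2. Of 33252 probe sets, 19460 carry 1 gene symbol, 1754 several and 12038 none in the platform annotation, which gave 18417 genes, each with its brightest single-symbol probe set. Genes were tested 2-sided in R 4.3.3 with limma 3.58.1 (lmFit, eBayes). Precision is limited by the number of arrays: the median SE among the members was 0.06 (log2).

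All 46 members are named by role. By rule, every array's value is given for the 10 largest changes past the threshold, PSMB5 to PSMB10, and POMP. Those of PSMA7, PSMA8, PSMB11, PSME4, PSMD10, PSMG4, TAP1, NFE2L1 and NFE2L2 were added after their values had been seen. From each other list up to 4 called genes were named by rule, with NFE2L1 and NFE2L2, and the rest after their values were seen. Members, lists and motifs were chosen with earlier results of these data known. Promoter windows are from RefSeq tables (GRCh38.p14), and the deposited files hold no coordinates. The alternatives were quantile normalization, cyclic loess, the median over probe sets, a filter on the 30% dimmest genes, 50 added before log2, eBayes with trend and robust settings, a Welch t-test of each gene, a replicate block, and fits without each array in turn. For the arrays, the paper names a t-test only as the score in its gene set analysis.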

Additional observations from a re-analysis of the deposited data

How the results depend on the processing

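Each of the 13 genes past the threshold kept its direction in all 14 alternatives, and 4 of them (PSMC4, PSMD4, PSMD8 and PSMG1) passed in every one. The rises numbered 8 and the falls 5. With eBayes in its trend and robust mode 14 proteasome genes rose and 5 fell, beside 3825 rises and 2876 falls over all genes. With a Welch t-test of each gene 4 rose and 0 fell after adjustment (9 and 4 at an unadjusted p under 0.05), beside 1962 rises and 1280 falls over all genes (3630 and 2792 unadjusted). Over the fits without 1 array the rises ran from 6 to 8 and the falls from 1 (without control replicate 2 or 3) to 8 (without EC-70124 replicate 3), with 2 without control replicate 1 or EC-70124 replicate 2 and 3 without EC-70124 replicate 1. Among all genes the rises in these fits ran from 2991 to 3888 and the falls from 2133 to 2947. With the replicate number as a block 8 rose and 2 fell, PSMB8, PSME4 and PSMD10 being lost, beside 3521 rises and 2662 falls over all genes. Whether the numbers pair the samples is not known. Deviations from group means correlated between control and treated arrays at r of 0.127, -0.023 and 0.136 for numbers 1, 2 and 3. For 2 of the 3 numbers the best match was the array of the same number. So few arrays cannot settle this, and the pairing is not taken as part of the design. Quantile normalization changed the split of all genes from 3631 rises and 2722 falls to 3112 and 3527, and that of the proteasome genes to 7 and 5. The median log2 fold change of the proteasome genes was then -0.0089 and that of all genes -0.045.

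The change of PSMB10 minus PSMB7 turned negative after quantile normalization (-0.058), cyclic loess (-0.0050) and an offset of 50 (-0.0026). Without 1 array it ran from -0.068 to 0.050, and that of PSMB8 minus PSMB5 from -0.078 to 0.045. The change of PSMB9 minus PSMB6 stayed negative, from -0.78 to -0.40 without 1 array. Among genes that did not pass, PSMD14 turned to -0.020 after quantile normalization and -0.0077 after cyclic loess, and PSMG4 to -0.080 and -0.036. Those that changed sign without 1 array ran from -0.065 to 0.027 (PSMA2), -0.061 to 0.012 (PSMA3), -0.083 to 0.0076 (PSMA5), -0.098 to 0.0050 (PSMD3), -0.15 to 0.0092 (PSMG3), -0.0054 to 0.078 (PSMD14) and -0.020 to 0.049 (PSMG4). The cause of these turns was not tested.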
